A study of Homo sapiens with 6 samples.

Results

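The LIM-only genes LMO1, LMO2, LMO3, LMO4 and LMO7 and the LIM-binding genes LDB1 and LDB2 were read in RNA-seq libraries of Ishikawa, an established line of estrogen-responsive endometrial adenocarcinoma. These 7 genes were taken by name out of the 26364 genes in the deposited count table. LMO3 drew attention to the family because it is among the genes with the largest E2-associated decreases in these same libraries, so its E2 values are given as a description with no test. The other members were taken for their names. A total of 4 members (LMO3, LMO4, LMO7 and LDB1) passed the filter on low counts, as did 15611 of all genes.

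There were 6 libraries from 3 lines: the parental Ishikawa line, which carries ETV4, and 2 clones with ETV4 knocked out. ETV4 encodes a transcription factor of the ETS family. Each line was given either 0.1% DMSO as vehicle or 10 nM E2 (17β-estradiol), with 1 library per treatment, so each clone group had n = 2 and each parental group had a single library with no replicate check. All of the lines had been held in hormone-depleted medium beforehand. The labels give the treatment time of the same libraries both as 8 h (in the protocols) and as 1 h (in the characteristics). The question was how these genes differed with E2, with the loss of ETV4, and between the lines in their response to E2. The libraries of 1 line are not stated to be separate cultures, and each p-value measures only the spread between these libraries. Line and genotype cannot be told apart for the single parental line.

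LIM domains are zinc-binding folds that hold proteins together and do not bind DNA. The small nuclear proteins LMO1 to LMO4 consist of little beyond a pair of LIM domains, and they bridge DNA-binding factors to the LIM-domain-binding proteins LDB1 and LDB2. LDB proteins self-associate and so can bring distant regulatory elements together, and the same LIM-binding surface also holds LIM-homeodomain factors, which compete with LMO proteins for LDB. LMO2 with LDB1 is best known from blood and endothelial development, LMO1 and LMO3 from neural tissue and neuroblastoma, and LMO4 from epithelia including the breast. LMO7 shares the name but is a large protein with LIM and PDZ domains that is linked to cell junctions and to the nuclear envelope.

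Promoter sequence was read for LMO3, whose level differed most between these libraries among the tested members, and for LDB1, the most abundant member per length. RefSeq start windows (GRCh38.p14) were present for 5 of the 7 members, in 14 windows: LMO3 and LMO7 had 5 each, LMO4 had 2, and LMO1 and LDB1 had 1 each. The 250 bases upstream of each start are used below, and each is printed 5′ to 3′ on the strand of its gene. The window of the most upstream LMO3 start lies at chr12:16608215-16608464 on the minus strand and is 37.6% G and C. That of LDB1 lies at chr10:102115003-102115252 on the minus strand and is 67.2% G and C.
LMO3 start 1: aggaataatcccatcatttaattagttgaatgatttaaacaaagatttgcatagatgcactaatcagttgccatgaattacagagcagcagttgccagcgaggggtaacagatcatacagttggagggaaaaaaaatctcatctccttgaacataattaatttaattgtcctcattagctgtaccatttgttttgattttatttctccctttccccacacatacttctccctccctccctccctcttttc
LDB1 start: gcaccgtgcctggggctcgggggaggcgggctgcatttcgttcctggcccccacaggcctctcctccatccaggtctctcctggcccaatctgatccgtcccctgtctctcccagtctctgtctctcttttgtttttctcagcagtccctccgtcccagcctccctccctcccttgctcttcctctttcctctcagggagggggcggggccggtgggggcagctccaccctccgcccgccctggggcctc

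These upstream windows were searched on both strands for the full estrogen response element GGTCANNNTGACC, for its single arm AGGTCA, and for the ETS core CCGGAA. None of the 14 windows held the full element, which occurred in 14 of all 35116 windows (0.0399%). The single arm, which the full element contains where an A precedes it, occurred in 12.1% of all windows, and the ETS core occurred in 14.5%. Among the members' windows each occurred once, both in LMO3 and both on the strand opposite to the gene. The arm lay 176 bases before start 4 and the ETS core 239 bases before start 5. Both are printed with 10 bases on either side, and the capitals mark the motif as it reads on the gene's strand. With these flanks the printed stretches span chr12:16606131-16606156 for the arm and chr12:16605603-16605628 for the ETS core, both on the minus strand. A match describes the letters in the window and does not show binding.
LMO3 start 4: tgcttcttttTGACCTttcccaagga
LMO3 start 5: ctgggtgggtTTCCGGacccctcccc

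Library totals ran from 28037392 to 36829479 counts, so 3 counts corresponded to between 0.0802 and 0.103 CPM (counts relative to the TMM-scaled library total). ETV4 was at 3.41 CPM in DMSO and 2.95 in E2 in clone 1, at 2.42 and 2.77 in clone 2, and at 19.7 and 28.4 in the parental line, so residual ETV4 transcript was counted in both clones. All 5 epithelial markers (EPCAM, CDH1, KRT8, KRT18 and KRT19) were above 2 CPM, and ESR1, which encodes estrogen receptor alpha, was at 149 to 276 CPM. The epithelial markers summed to 2559 to 2924 CPM in the DMSO libraries and to 1958 to 2203 CPM in the E2 libraries. They did not all shift alike. CDH1 was at 445 and 494 CPM in DMSO and E2 in the parental line, 309 and 364 in clone 1, and 491 and 470 in clone 2. The part of the shift of the sum in the members' values was not tested. Of 5 endothelial markers only VWF had a mean above 2 CPM (1.61 to 3.96 CPM). KDR had at most 21 counts in a library (0.0336 to 0.586 CPM), and PECAM1, CDH5 and TEK had 2 or fewer. The haematopoietic markers PTPRC, SPI1 and CD34 had at most 11 counts in any library. Of 5 stromal markers COL1A1 alone had a mean above 2 CPM, at 44.8 to 75.2 CPM. These marker sums are relative measures from bulk RNA, in which fewer cells of a type and less RNA per cell cannot be told apart, and the same holds for every level below.

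Levels of the members differed widely. Levels were compared between genes on the scale of CPM per kilobase of the longest annotated transcript. LDB1, the common LIM-binding partner, was highest at 63.3 ± 13.3 CPM per kb (SD over all 6 libraries, range 47.9 to 83.3). LMO4 followed at 10.7 ± 2.24 (7.79 to 13.4) and LMO7 at 10.0 ± 2.22 (7.85 to 14.1), and these neighbours in the order did not differ beyond their spread. LMO3 was lower, at 0.864 ± 0.915 CPM per kb (0.224 to 2.65), and did not overlap LMO4 or LMO7 in any library. LMO1 was at 0.0762 ± 0.0655, LDB2 at 0.00755 and LMO2 at 0.00691 CPM per kb. The order therefore placed 1 nuclear LIM-only gene (LMO4) and 1 LIM-binding gene (LDB1) well above their relatives in these cells.

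LMO1, LMO2 and LDB2 were at or near the limit of detection. LMO1 had 2 counts in DMSO and 6 in E2 in clone 1, 0 and 3 in clone 2, and 1 and 7 in the parental line. Its count was higher in the E2 library of each line, and with 19 counts over all libraries it did not pass the filter and was not tested. LMO2, the partner of LDB1 in blood development, had 3 counts in all, never more than 1 in a library. LDB2, the second LIM-binding gene, had 4 counts in all, never more than 2 in a library. No fold change is given for these 3 genes.

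**Figure D1:**
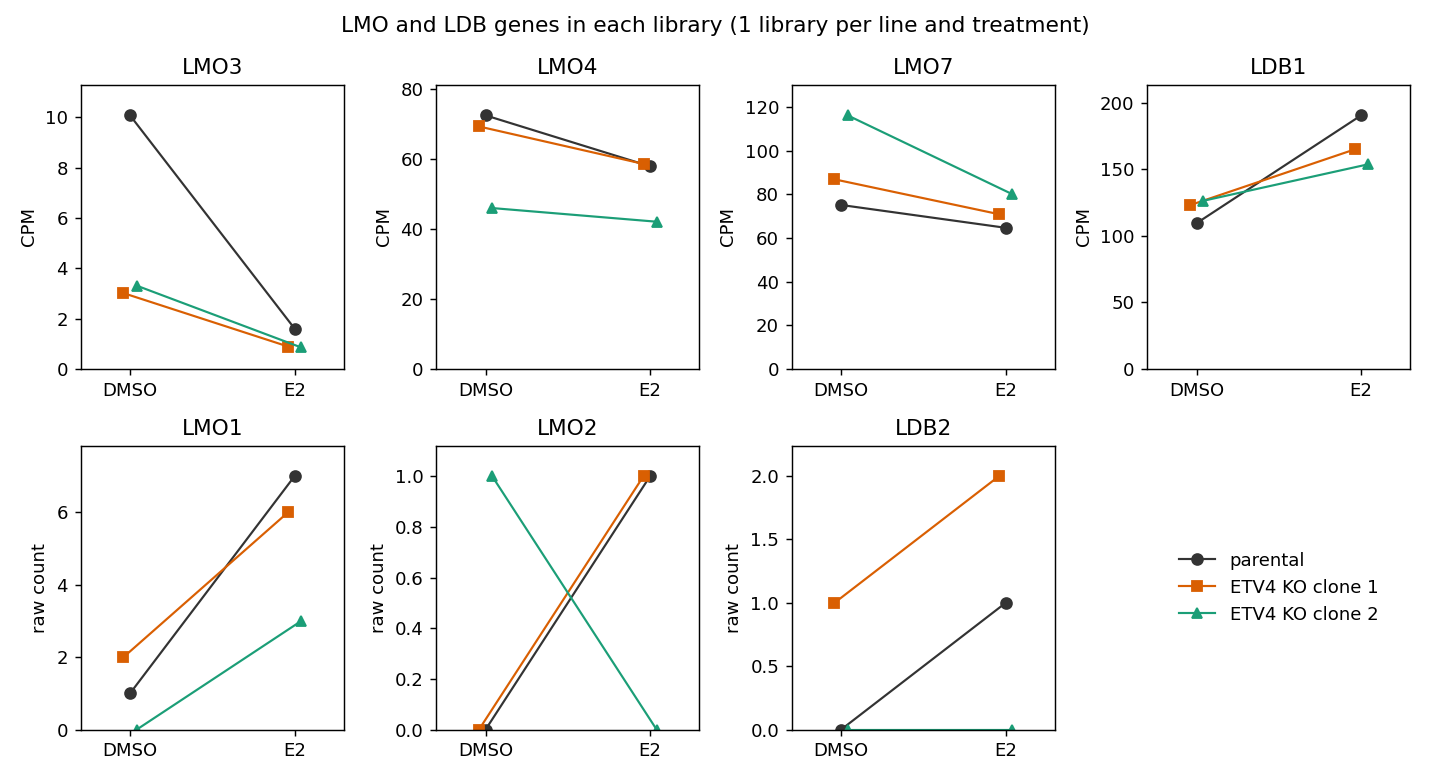
Level of each member after DMSO and after E2, joined within a line (circles, parental; squares, clone 1; triangles, clone 2); the upper row is in CPM and the lower row in raw counts, with 1 library per point. LMO3 in the parental DMSO library (10.1 CPM) stands above the other 5 libraries, LDB1 is higher after E2 in every line, and the lower row never exceeds 7 counts.

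LMO3, a nuclear LIM-only protein, had 300 counts in DMSO and 60 in E2 in the parental line. The corresponding counts were 108 and 26 for clone 1, and 97 and 25 for clone 2. In CPM these were 10.1 and 1.60 (parental), 3.01 and 0.891 (clone 1), and 3.31 and 0.854 (clone 2). Every E2 library was below every DMSO library, the parental DMSO library was the highest of all, and the clones were close to each other in both treatments. LMO3 in E2 was at 15.9% of its DMSO level in parental cells, 29.6% in clone 1 and 25.8% in clone 2. On the log2 scale with a prior count of 2 the E2 change of LMO3 was -2.61 in the parental line, with a 95% counting interval from -3.01 to -2.21. It was -1.69 for clone 1 (interval -2.31 to -1.07) and -1.88 for clone 2 (interval -2.51 to -1.25). These intervals cover counting error only. The fitted E2 effect over the 3 lines was -2.14 on the log2 scale.

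The E2 contrast chose LMO3, but the comparison of the clones with the parental line did not, although the parental DMSO library enters both. In DMSO, LMO3 in clone 1 was at 29.9% and in clone 2 at 32.8% of the parental level, a mean of 31.4% ± 2.09 (SD, n = 2 clones). In E2 the clones were at 55.6% and 53.3% of the parental level, a mean of 54.4% ± 1.64 (SD, n = 2 clones). Both clones were below the parental line in both treatments, and the distance was larger in DMSO.

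The fitted knockout effect on LMO3 was -1.32 on the log2 scale (SE 0.25). By edgeR's quasi-likelihood test, adjusted over 15611 genes, its adjusted p was 0.127 (unadjusted p = 0.00131), which did not pass the threshold of 0.05. The parental DMSO library enters both this contrast and the E2 contrast that chose LMO3, so the knockout p-values of LMO3 are descriptive. With DESeq2, which called 454 genes (2.91%), the effect of -1.35 passed (adjusted p = 0.00408). It was -1.33 without clone 1 and -1.39 without clone 2, where the remaining clone is assumed to vary like the parental line. Without the parental DMSO library the effect was -0.88 (adjusted p = 0.999 in edgeR), and without the parental E2 library it was -1.67 (adjusted p = 0.186 in edgeR). The adjusted p over all 15 alternatives ran from 0.000185 to 0.999. None of the 4 tested members passed the knockout test in edgeR, against 51 of all 15611 genes (0.327%; 23 higher and 28 lower in the clones). LMO3 alone of the 4 had an unadjusted p below 0.05, as did 1787 of all genes (11.4%).

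**Figure D2:**
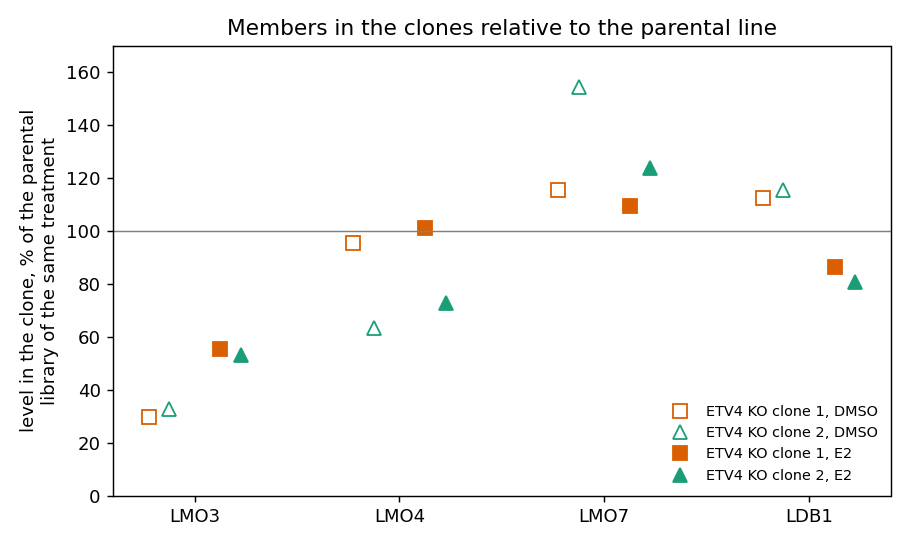
Level of the 4 tested members in each knockout clone as a percent of the parental library of the same treatment (open symbols, DMSO; filled symbols, E2; squares, clone 1; triangles, clone 2; the line marks 100%). LMO3 is at 29.9% and 32.8% in DMSO and at 55.6% and 53.3% in E2, while LDB1 is above the line in DMSO and below it in E2 in both clones.

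The fitted E2 change of LMO3 in the clones minus that in the parental line was 0.80 on the log2 scale, and 0.50 with the GC and length correction. These are the E2 changes that chose LMO3, so the difference is a description with no test. For LMO4, LMO7 and LDB1 the interaction of E2 with genotype was tested and none passed in edgeR, against 0 of 15611 genes (0%). None of these 3 had an unadjusted p below 0.05 in that test, as 1190 of all genes did (7.62%). DESeq2 called 29 genes (0.186%), gave LDB1 an adjusted p of 0.384 and gave none to LMO4 and LMO7, which its own filter removed.

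A trend with base composition ran alongside the parental values. Over genes sorted into 5 bins by the GC content of the longest transcript, the median log2 E2 change in the parental line was -0.31 in the lowest bin and 0.321 in the highest. In clone 1 these medians were -0.0443 and 0.0799, and in clone 2 they were 0.0509 and -0.00367. LMO3 (36.9% GC) and LMO7 (40.3%) lie in the lowest bin and LDB1 (59.7%) in the highest. After the GC and length correction the E2 effect was -2.05 for LMO3 and 0.50 for LDB1, and the knockout effect on LMO3 was -1.25 (SE 0.22; adjusted p = 0.0772 in edgeR).

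In the annotation used for lengths, LMO3 overlaps MGST1, a microsomal glutathione transferase gene on the opposite strand, which had 1285 to 3327 counts per library. The library kit keeps strand, but whether the counting used it is not given in the sources used here. MGST1 was at 92.9 CPM in DMSO and 75.5 in E2 in clone 1, at 43.9 and 46.8 in clone 2, and at 61.3 and 35.2 in the parental line. Its highest level was in clone 1 in DMSO, where LMO3 was at 3.01 CPM, and its lowest in the parental line in E2, where LMO3 was at 1.60 CPM. The E2 effect on MGST1 of -0.37 (SE 0.32) had an adjusted p of 0.519 in edgeR. The part of MGST1 reads in the LMO3 counts was not tested. No stretch of 36 bases was shared between the annotated transcripts of any 2 members. Inexact matches and transcripts of other genes were not searched.

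LMO4, the main nuclear LIM-only gene of these cells, had 2157 counts in DMSO and 2168 in E2 in the parental line, 2484 and 1710 in clone 1, and 1347 and 1232 in clone 2. After scaling these were 72.5 and 57.9 CPM, 69.3 and 58.6 CPM, and 46.0 and 42.1 CPM. Clone 2 was the lowest line in both treatments, and clone 1 was close to the parental line. The clones averaged 57.7 ± 16.5 CPM in DMSO and 50.4 ± 11.7 CPM in E2 (SD, n = 2), groups that overlap. The E2 change per line was -0.32, -0.24 and -0.13 (log2) for the parental line, clone 1 and clone 2. Fitted over the lines it was -0.24 (SE 0.20; adjusted p = 0.499 in edgeR). The E2 effect was -0.08 without the DMSO library of clone 1, -0.12 without the E2 library of clone 2, and -0.40 without either the E2 library of clone 1 or the DMSO library of clone 2. The knockout effect on LMO4 was -0.27 (SE 0.21; adjusted p = 0.585 in edgeR), -0.57 without clone 1 and -0.02 without clone 2, and clone 2 stood at 63.4% of the parental level in DMSO against 95.6% for clone 1. The distance of -0.59 between the clones in DMSO and of -0.48 in E2 (log2, clone 2 against clone 1) was larger than either fitted effect. The interaction was 0.13 (SE 0.43; adjusted p = 0.939 in edgeR).

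LMO7, the junction-linked LIM and PDZ protein, had 2236 counts in DMSO and 2421 in E2 in the parental line, 3114 and 2069 in clone 1, and 3404 and 2345 in clone 2. After scaling these were 75.2 and 64.7 CPM, 86.9 and 70.9 CPM, and 116 and 80.1 CPM. Clone 2 was the highest line in both treatments and the parental line the lowest, and within each line the E2 library was the lower of the pair. The clones averaged 102 ± 20.7 CPM in DMSO and 75.5 ± 6.50 CPM in E2 (SD, n = 2). The fitted E2 effect on LMO7 was -0.36 on the log2 scale (SE 0.15; unadjusted p = 0.0488, adjusted p = 0.242 in edgeR), which did not pass. With the replicate block and the GC and length correction together it was -0.43 and passed (adjusted p = 0.0284 in edgeR), where 1645 genes were called (10.5%). In 16 of the 17 alternatives it did not pass. In the parental line the E2 change of -0.22 was -0.04 when libraries were scaled to their total counts. Without the DMSO library of clone 2 the E2 effect was -0.21. The knockout effect was 0.33 (SE 0.16; adjusted p = 0.474 in edgeR), and it was 0.22 without the DMSO library of clone 2, 0.21 without the parental DMSO library and 0.17 without clone 2. The interaction was -0.21 (SE 0.31; adjusted p = 0.839 in edgeR). With the GC and length correction the knockout effect on LMO7 was 0.195 and the interaction -0.097.

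LDB1, the LIM-binding hub, had 3255 counts in DMSO and 7127 in E2 in the parental line, 4406 and 4809 in clone 1, and 3697 and 4496 in clone 2. After scaling these were 109 and 190.4 CPM, 123 and 165 CPM, and 126 and 154 CPM. Every E2 library was above every DMSO library, though the share of all genes separated in this way was not counted. The parental line was the lowest in DMSO and the highest in E2. The clones averaged 125 ± 2.31 CPM in DMSO and 159 ± 7.94 CPM in E2 (SD, n = 2). LDB1 in E2 was at 174% of its DMSO level in parental cells, 134% in clone 1 and 122% in clone 2.

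The fitted E2 effect on LDB1 was 0.50 on the log2 scale (SE 0.14; unadjusted p = 0.00881, adjusted p = 0.149 in edgeR), which did not pass. It passed with DESeq2 (0.50, adjusted p = 0.028), which called 1115 genes (7.14%). With the replicate block and the GC and length correction together it passed too (0.50, adjusted p = 0.0434 in edgeR), where 1645 genes were called (10.5%). Without clone 2 the effect was 0.61. In 14 of the 17 alternatives it did not pass. Of the 3 members whose E2 effect could be tested (LMO4, LMO7 and LDB1) none passed, against 176 of 15611 genes (1.13%; 141 higher and 35 lower with E2). LMO7 and LDB1 had an unadjusted p below 0.05, as did 3180 of all genes (20.4%). The clones stood at 114% ± 2.11 of the parental LDB1 level in DMSO and at 83.6% ± 4.17 in E2 (SD, n = 2), and the knockout effect of -0.04 (SE 0.15; adjusted p = 0.91 in edgeR) averages these opposite differences. The interaction was -0.45 on the log2 scale (SE 0.24; adjusted p = 0.619 in edgeR), so the smaller E2 difference of LDB1 in the clones did not pass the test of that difference.

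**Figure D3:**
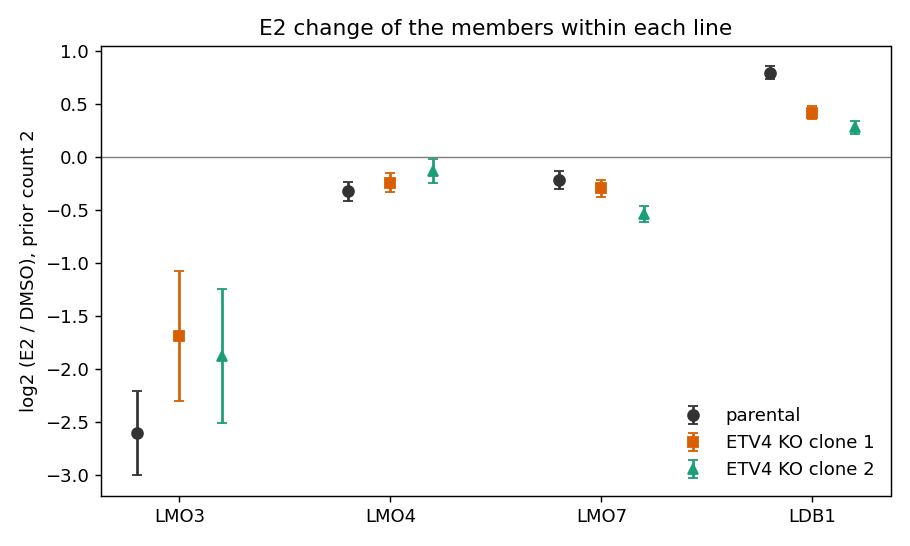
E2 change within each line (log2 of E2 over DMSO, prior count 2) for the 4 tested members, with 95% intervals that cover counting error only (circles, parental; squares, clone 1; triangles, clone 2). LMO3 lies between -2.61 and -1.69, LMO4 and LMO7 lie below 0 in every line, and LDB1 lies above 0 with its highest value (0.80) in the parental line.

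Ratios of counts within a library do not depend on how libraries were scaled. In the parental line there were 92.2 LMO3 counts per 1000 LDB1 counts in DMSO and 8.42 in E2. Clone 1 went from 24.5 to 5.41 and clone 2 from 26.2 to 5.56. The LMO3 to LDB1 ratio was thus lower with E2 in each line, with log2 changes of -3.45, -2.18 and -2.24 for the parental line, clone 1 and clone 2, and LMO3 enters this ratio through the contrast that chose it.

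The abundant members gave the same kind of ratio without that choice. LMO4 had 663 counts per 1000 LDB1 counts in DMSO and 304 in E2 in the parental line, 564 and 356 in clone 1, and 364 and 274 in clone 2. LMO7 had 687 and 339.7 in the parental line, 707 and 430.2 in clone 1, and 921 and 522 in clone 2. The log2 change of the LMO4 to LDB1 ratio with E2 was -1.12 in parental cells, -0.66 in clone 1 and -0.41 in clone 2, and that of LMO7 to LDB1 was -1.02, -0.72 and -0.82. A ratio within a library shows that the pair changed unequally and not which gene changed, and these ratios were not tested. Such ratios still hold the trend with base composition. In the parental line the median E2 change was -0.31 in the GC bin of LMO3 and LMO7. It was -0.176 in that of LMO4 and 0.321 in that of LDB1. The part of this trend in the ratios was not tested.

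**Figure D4:**
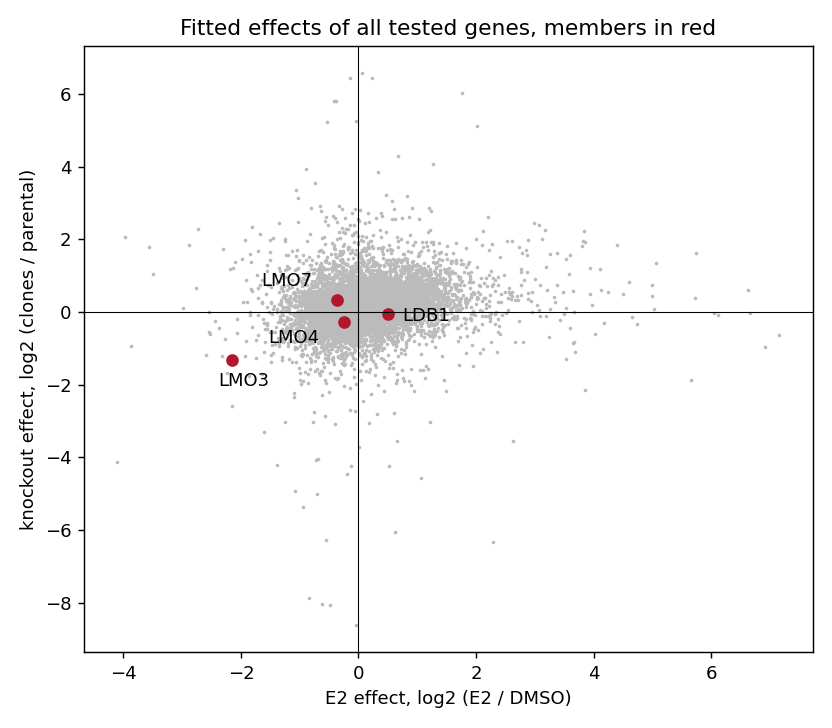
Fitted E2 effect (log2 of E2 over DMSO) against fitted knockout effect (log2 of clones over parental) for all 15611 tested genes in grey, with the 4 tested members in red. LMO3 lies at -2.14 and -1.32, apart from LMO4, LMO7 and LDB1 near the centre; both axes come from 1 fit that shares the parental DMSO library.

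Genes that work with the members were read as 6 lists, holding 68 genes in the table of which 54 passed the filter. The lists were drawn up from general knowledge, but with earlier results of these data known. Among the members, LMO3 was chosen by its E2 decrease in these same libraries. The list calls below therefore do not come from an unselected set, and their shares beside all genes are descriptive. The E2 effect passed the test for 2 of the 54 upward and 1 downward, the knockout effect for 0 and the interaction for 0, all in edgeR, where 1.13%, 0.327% and 0% of all genes passed. At an unadjusted p below 0.05 there were 12 of the 54 for E2, 6 for the knockout and 2 for the interaction, beside 20.4%, 11.4% and 7.62% of all genes. DESeq2 called 6, 2 and 0 of the 54, beside 7.14%, 2.91% and 0.186% of all genes. These unadjusted and DESeq2 counts include GATA5 for E2 and RUNX1T1 for the knockout, named after their values were seen. GATA5 passed the filter on low counts only through E2 libraries and RUNX1T1 only through the clones. Their tests therefore give no support for a list result. The median E2 effect over all tested genes was -0.02 on the log2 scale and the median knockout effect was 0.01.

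The LIM-homeodomain factors, which share the LDB1 surface with LMO proteins, had 7 of 12 genes tested, 1 higher with E2 and none lower, with a median E2 effect of 0.09. LHX4, known from pituitary and spinal cord development, rose from 0.269 to 2.97 CPM in the parental line, from 0.642 to 2.43 CPM in clone 1 and from 0.854 to 4.54 CPM in clone 2. Its E2 effect was 2.57 on the log2 scale (SE 0.40; adjusted p = 0.0436 in edgeR), from low counts. The call was lost in limma-voom (adjusted p = 0.0629) and without the DMSO library of clone 1 (0.146), the E2 library of clone 2 (0.223), the parental DMSO library (0.181), the parental E2 library (0.194) or both parental libraries (0.189). Where every library had to hold 10 counts or more, LHX4 was not tested. The most abundant factors of the list, ISL1 (-0.47, SE 0.24, adjusted p = 0.311 in edgeR) and ISL2 (0.18, SE 0.19, adjusted p = 0.596 in edgeR), did not pass.

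Of the DNA-binding factors that LMO proteins bridge (basic helix-loop-helix, GATA and related proteins), 10 of 16 were tested and none passed. The median E2 effect was 0.23 and the median knockout effect 0.20. GATA5 (E2 effect 3.11) and NHLH1 (0.82) passed the filter on low counts only through E2 libraries. Both raise the E2 median, which is therefore not read as a shift of the list. The E proteins TCF3 (116 to 187 CPM) and TCF12 (127 to 153 CPM) were the most abundant, with E2 effects of 0.27 (SE 0.16, adjusted p = 0.375 in edgeR) and -0.09 (SE 0.11, adjusted p = 0.654 in edgeR).

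All 13 cofactors of LDB and LMO proteins were tested, 1 higher with E2, with a median E2 effect of 0.08. CBFA2T3, a corepressor of the ETO family found in LDB1 complexes of blood cells, rose from 5.55 to 46.4 CPM in the parental line, from 4.80 to 37.6 CPM in clone 1 and from 6.73 to 60.2 CPM in clone 2. Every E2 library was above every DMSO library, and the effect was 3.08 on the log2 scale (SE 0.23; adjusted p = 0.00405 in edgeR). It passed in each of the 17 alternatives, with an effect between 2.86 and 3.25. The knockout effect on CBFA2T3 was 0.07 (SE 0.23; adjusted p = 0.911 in edgeR) and its interaction 0.03 (SE 0.49; adjusted p = 0.991 in edgeR). RLIM, the ubiquitin ligase that acts on LDB proteins, had an E2 effect of 0.08 (SE 0.14; adjusted p = 0.755 in edgeR). RBBP8, a DNA repair factor that binds LMO4, was at 182 to 380.0 CPM with an E2 effect of 0.58 (SE 0.18; adjusted p = 0.172 in edgeR, 0.0424 in DESeq2).

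The FHL, CRIP and CSRP proteins, which like LMO proteins are built largely of LIM domains, had 7 of 10 genes tested, 1 lower with E2, with a median E2 effect of -0.31. CRIP2, a cysteine-rich LIM protein, fell from 369 to 197 CPM in the parental line, from 327 to 179 CPM in clone 1 and from 313 to 155 CPM in clone 2. Its E2 effect was -0.93 on the log2 scale (SE 0.13; adjusted p = 0.0262 in edgeR). The effect was -0.87 or further below 0 in each of the 17 alternatives, but the call was lost without the DMSO (adjusted p = 0.147) or E2 (0.0562) library of clone 1, the E2 library of clone 2 (0.193), the parental DMSO (0.11) or E2 (0.123) library, both libraries of clone 1 (0.077) or both parental libraries (0.112). CSRP1, its most abundant relative in the list, had an E2 effect of -0.41 (SE 0.15; adjusted p = 0.204 in edgeR).

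The lists nearest to LMO7 held no call. All 8 PDZ-LIM genes with LIMCH1 were tested, with a median E2 effect of 0.21, and all 9 junction and nuclear envelope partners, with a median of -0.10. PDLIM1, a PDZ-LIM adaptor on actin fibres, was at 53.0 CPM in DMSO and 32.4 in E2 in the parental line, 129 and 92.0 in clone 1, and 231 and 162 in clone 2. Every clone library was above both parental libraries, though the share of all genes separated in this way was not counted. Clone 2 was above clone 1 in both treatments. The knockout effect on PDLIM1 was 1.86 on the log2 scale (SE 0.33; adjusted p = 0.102 in edgeR), which did not pass. It passed with DESeq2 (adjusted p = 1.54e-07), which called 2.91% of all genes. The effect was 2.00 without the E2 library of clone 1, 2.21 without both libraries of clone 1 and 1.39 without both of clone 2. In 11 of the 15 alternatives it did not pass. With a clone left out, the fit holds no spread between clones. LIMCH1, the closest relative of LMO7, had an E2 effect of -0.22 (SE 0.12; adjusted p = 0.343 in edgeR). ACTN4 and CDH1, the most abundant partners, had E2 effects of -0.01 (SE 0.19; adjusted p = 0.983 in edgeR) and 0.09 (SE 0.21; adjusted p = 0.811 in edgeR).

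**Figure D5:**
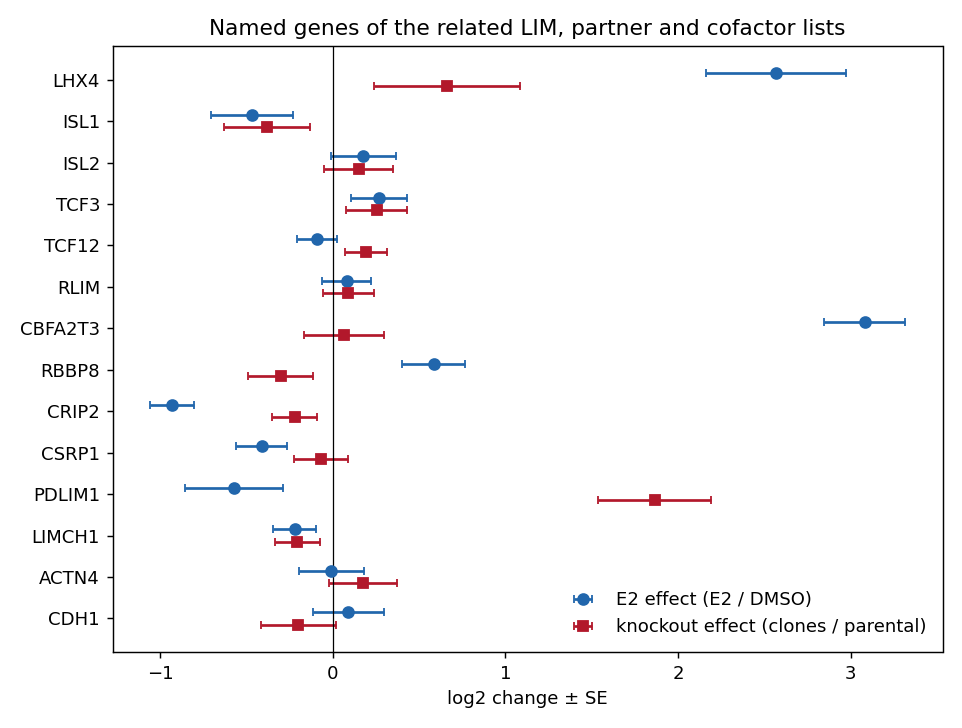
Fitted E2 effect (circles) and knockout effect (squares) on the log2 scale with SE for the named genes of the 6 lists of related genes. LHX4 (2.57), CBFA2T3 (3.08) and CRIP2 (-0.93) passed the E2 test at an adjusted p of 0.05, and no gene passed the knockout test. PDLIM1 has the highest knockout value among the genes shown (1.86). RUNX1T1 (6.45) and GATA5 (2.00) were higher, from low counts, and are not shown.

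The genes whose pattern was most like that of each member were sought by Pearson's r of log2 CPM over the 6 libraries, among 12366 genes averaging 2 CPM or more. Such a search among many genes over few libraries, which share their depth and scaling, always returns high values, and the r values are descriptive. For LMO3 the nearest were ARHGEF3 (r = 0.9993), CITED2 (0.997), a transcriptional coregulator, PPDPF (0.997), APH1A (0.9923), a subunit of gamma-secretase, and TES (0.9907), itself a LIM-domain protein of focal adhesions. Their range was narrower than that of LMO3: ARHGEF3 was at 42.1 and 22.6 CPM in DMSO and E2 in the parental line, 28.2 and 19.0 in clone 1, and 29.2 and 18.2 in clone 2. With Spearman's rank correlation 1 of these 5 genes stayed among the nearest 5. Over 6 libraries rho takes few distinct values, so many genes can tie in it. For the 5 genes with LMO3 rho was 0.886 to 1.

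For LMO4 the nearest were MB (r = 0.995), which encodes myoglobin, UGT3A2 (0.9935) and STOM (0.9918), a membrane scaffold protein, each lower in clone 2 than in clone 1 in both treatments. For LMO7 they were TMEM150C (0.9914), RCOR2 (0.9913), a corepressor, and FOXA1 (0.9894), a pioneer factor known to work with estrogen receptor alpha. FOXA1 was at 10.9 and 10.2 CPM in DMSO and E2 in the parental line, 11.4 and 10.3 in clone 1, and 13.5 and 11.2 in clone 2. For LDB1 they were RRP12 (0.9967), RASA3 (0.9963), a Ras GTPase-activating protein, and NOL6 (0.9962), where RRP12 and NOL6 act in ribosome assembly. RRP12 was at 45.8 and 119.9 CPM in DMSO and E2 in the parental line, 58.7 and 92.7 in clone 1, and 62.9 and 85.7 in clone 2. As with LDB1, the parental line was the lowest in DMSO and the highest in E2.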

How the data were processed

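Poly(A)-selected RNA was sequenced from stranded libraries, per the labels' protocols. HISAT2, SAMtools, Subread, DESeq2 and hg19 are listed in the submitters' processing notes, while the roles of these tools, the annotation and the use of strand are not given in the sources used here. The deposited count table holds whole-number counts per gene. The second table, which the authors deposited as normalized counts, holds a signal equal to each count divided by a library size factor of 0.926 to 1.188, and it entered only as an alternative scaling of levels. Column names that write DMOS and ER were read as DMSO and E2.

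Tests on the counts were run in edgeR 4.0.16 under R 4.3.3 (filterByExpr, TMM, quasi-likelihood test, Benjamini-Hochberg over 15611 genes, threshold 0.05). The E2 and knockout effects came from 1 additive model of the 6 libraries, and their interaction (clones minus parental) from a second. A prior count of 2 was added for changes between single libraries. Alternatives were DESeq2 1.42.0, limma 3.58.1, other filters and scalings, a correction for GC content and length, a replicate block and left-out libraries or lines. The clone numbers pair the libraries of each line, since both come from the same cells: the difference between clones correlated between treatments (r = 0.626 across 15611 genes). Among the fits, this pairing entered only the replicate block. The main fits had terms for genotype and treatment and none for line, so they treated the 6 libraries as independent. Lengths, GC content and overlaps came from GENCODE 29 and covered 96.7% of tested genes, and start windows came from RefSeq, neither in the build of the counts. The fits were tested on simulated data.

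The members and the lists of related genes were chosen with earlier results of these data known. LMO3 was selected on its E2 decrease in these libraries, and the other members were taken for their names. Named genes were the members, ETV4, up to 4 called genes per list and fit, the 2 most abundant of each list, and the 5 genes most like LMO3 or 3 most like another tested member.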

Additional observations from a re-analysis of the deposited data

How the results depend on the processing

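With 6 libraries the number of genes called depended strongly on the setting. For E2 it was 176, against 1115 with DESeq2, 408 with the GC and length correction, 384 with the replicate block, 1645 with both of these, and 40 to 3353 with a library or line left out. For the knockout it was 51, against 454 with DESeq2, 121 with the correction, 46 with the replicate block and 1 to 996 with a library or line left out. For the interaction it was 0, against 29 with DESeq2, 2470 with the replicate block (1 residual degree of freedom), 1144 with the block and the correction, and 0 to 38 with a library left out. The interaction was not fitted without a clone, which leaves no residual degree of freedom for a test, or without a parental library, where it cannot be estimated.

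Among LMO4, LMO7 and LDB1, DESeq2 called 1 for E2, the replicate block with the correction called 2, and left-out libraries or lines called 0 to 1. For the knockout, DESeq2 called 1 of the 4 members and left-out libraries or lines called 0 to 1, in each case LMO3. The knockout effect on LMO3 was -1.35 with DESeq2, -1.44 with the replicate block (adjusted p = 0.128 in limma-voom) and -1.67 to -0.88 with libraries left out, and its E2 effect was -2.37 to -1.85 over 17 alternatives. LMO4, LMO7 and LDB1 were not called for the interaction in any of the 12 alternatives run, although DESeq2 gave no adjusted p for LMO4 and LMO7. The replicate block alone changed the call of no tested member.

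The sign turned for 3 of the members' fitted effects. The knockout effect on LDB1 was 0.0038 with the correction and -0.27 to 0.19 with libraries left out, above 0 without the E2 library of clone 2 or the parental E2 library. With libraries left out, the interaction of LMO4 was -0.14 to 0.43, below 0 without the E2 library of clone 1 or the DMSO library of clone 2, and that of LMO7 was -0.43 to 0.013, above 0 without the latter. The cause was not tested. With total counts as the scale, the parental E2 change was -0.15 for LMO4, -0.04 for LMO7 and 0.98 for LDB1. In the related lists, DESeq2 called 1 LIM-homeodomain factor, 1 DNA-binding partner, 2 cofactors, 1 FHL, CRIP and CSRP gene and 1 PDZ-LIM gene for E2. For the knockout DESeq2 called 1 cofactor and 1 PDZ-LIM gene. The replicate block called 1 LIM-homeodomain factor, 1 DNA-binding partner, 1 cofactor and 2 FHL, CRIP and CSRP genes for E2. It called 2 DNA-binding partners and 2 cofactors for the interaction. Of all genes, the replicate block called 2.46% for E2 and 15.8% for the interaction. The DNA-binding partner called for E2 was GATA5 in both cases, named after its values were seen, which passed the filter on low counts only through E2 libraries. The cofactor called for the knockout was RUNX1T1, likewise named, which was at 0 in both parental libraries and passed only through the clones. Depth limited LMO1, LMO2 and LDB2, with 19, 3 and 4 counts in all.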
